A study of Homo sapiens with 30 samples.

Results

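LARP6 is a La-related RNA-binding protein whose La-module, a La motif joined to an RNA recognition motif, makes the main contact with RNA, and which is best known for binding collagen mRNAs and for roles in cell proliferation and invasion. Regions of low structure flank the La-module, the N-terminal region (NTR) on one side and the C-terminal region (CTR) on the other. An RNA-binding protein can alter the stability of the mRNAs it holds. RNA abundance in cells whose introduced LARP6 has or lacks the La-module bears on whether binding by that protein goes with changed transcript levels. The comparison described here set 2 lines whose introduced LARP6 lacks the La-module (ΔLa-module and ΔNTD) against 3 lines whose introduced LARP6 carries it (FL, ΔNTR and ΔCTR), in long, ribosomal RNA-depleted RNA sequencing. These are 5 of the 6 long RNA libraries and of the 30 samples of the series. The members were chosen by construct and not by expression.

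The cells were U-87 MG, an established human glioblastoma line, transduced with a lentiviral, doxycycline-inducible construct for myc-tagged LARP6 and kept as selected populations, with the cells' own LARP6 gene intact. FL held the full-length protein, ΔNTR and ΔCTR lacked the N-terminal or the C-terminal region, ΔLa-module lacked the La-module alone, and ΔNTD lacked the N-terminal region together with the La-module. All 5 lines, and the untransduced parental line shown beside them, were labelled as given doxycycline at 60 ng/mL for 24 h. Each line gave 1 long RNA library, so the lines are the units of each class (n = 3 carrying, n = 2 lacking) and the spread within a class also holds the differences between its constructs. A line's own transduction and culture cannot be told apart from its construct.

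The libraries held 25027075 (ΔNTR) to 28692476 (ΔLa-module) counts in genes, 62.2% to 65.6% of the reads, and mitochondrially encoded genes took 2.23% to 2.57% of them in the 5 lines. The labelled difference in binding was plain in the matched UV-crosslinking (iCLIP) peak lists, in which the authors pooled 3 replicates of each line. They listed 14334 peaks for FL, 17180 for ΔNTR and 15870 for ΔCTR, against 636 for ΔLa-module and 291 for ΔNTD. LARP6 itself does not check the labels, because the introduced coding sequence was codon-optimised and the counts follow the endogenous gene. LARP6 (chr15:70829130-70854157, minus strand, GRCh38) stood at 51.6 CPM (library-scaled counts) in ΔCTR, 60.9 in FL and 74.8 in ΔNTR, against 56.6 and 57.0 in ΔLa-module and ΔNTD, with 53.6 in parental cells. The classes overlapped for this gene (log2 fold change −0.14 ± 0.12 SE). Mesenchymal glioma markers were abundant in every line, with vimentin (VIM) at 7031 to 7987 CPM and CD44 at 2079 to 2344 CPM in the 5 lines. The astrocyte markers SLC1A3 and SLC1A2 reached 46.6 to 52.4 and 1.35 to 2.63 CPM. Only 2 of the 6 listed astrocyte markers had enough counts to test, and the whole list summed to 49.15 to 55.05 CPM. For 7 neuron markers the sum was 89.86 to 100.3 CPM, and for 5 oligodendrocyte markers it was 3.81 to 5.8 CPM. The summed level of 8 immune and endothelial markers was 1.64 to 2.74 CPM and that of 5 epithelial markers 5.69 to 9.05 CPM.

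Positions bound by full-length LARP6 are shown first, since the results below turn on the mRNAs that hold them. They are the strongest FL iCLIP peak of each of 8 mRNAs with a high total FL score. These 8 had the smallest p among such mRNAs whose levels did not overlap between the classes. The last 3 positions are those of ACTB, HNRNPH1 and PGK1, the mRNAs with the highest single FL peaks. The peak score is the crosslink count given by the authors' peak caller, summed over replicates. Sequences are the transcript strand of GRCh38, 5′ to 3′, limited to 30 bases near the centre of wider peaks. Coding exon or untranslated region names the place of the peak's centre base, so a printed stretch may run past that exon. No base is in capitals, because the peak lists give intervals and no single crosslinked base.
STAM2, coding exon, chr2:152143923-152143944, minus strand: aaattcagttaaataataaggt
PPP1R12C, coding exon, chr19:55095438-55095462, minus strand: gaagggacctccactcaggtgagtg
LIMK1, coding exon, chr7:74099117-74099146, plus strand: gtcaccctggtgtccatcccagcctcatct
CAMK2N1, untranslated region, chr1:20485563-20485592, minus strand: cgcagcgcagccgcgggcgctctccgggcc
MYLK, untranslated region, chr3:123613908-123613937, minus strand: gttattgatgggcattaatctatgttagtt
TFPI, untranslated region, chr2:187465026-187465055, minus strand: tttctttcatgactactttgatttagttaa
P4HA1, untranslated region, chr10:73007794-73007823, minus strand: ggtgttctgtttacctagtgtcttactctg
CRKL, untranslated region, chr22:20949864-20949893, plus strand: ctgctgctttgttgttctgcctgtcctagt
ACTB, untranslated region, chr7:5527485-5527514, minus strand: gtttttttaatagtcattccaaatatgaga
HNRNPH1, untranslated region, chr5:179614718-179614736, minus strand: ttatgcttactctaagtgg
PGK1, untranslated region, chrX:78126080-78126101, plus strand: tatatttatattttgcctgtta

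The pyrimidine share of these positions ran from 36.4% in STAM2 to 73.3% in CRKL. The 8 mRNAs were picked by their values in these lines and did not pass the edgeR test, so no shared trait is read from their positions.

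No gene passed the test between the classes. Of 18017 genes with enough counts to test, 0 (0% of those tested) were higher and 0 (0%) lower in the La-module lacking lines at an adjusted p below 0.05 by edgeR's quasi-likelihood test, and the smallest adjusted p was 0.194. An unadjusted p below 0.05 was found for 829 genes, 4.60% of those tested, 341 of them with higher and 488 with lower values in the lacking lines. The differences were small throughout. Among 14081 genes with a mean of at least 1 CPM, the median absolute log2 fold change was 0.078, 42 genes differed by 1.5-fold or more upwards and 70 downwards. The 2 classes did not overlap, with both lacking lines above or below all 3 carrying lines, in 1800 genes upwards (9.99%) and 1944 downwards (10.8%). DESeq2, run on the same counts, called 1 gene higher (VGF) and 5 lower (CEMIP, SMG5, STAM2, FBXO32 and PLXNA4), with 485 genes at an unadjusted p below 0.05. The genes described next had the smallest p in each direction among those whose classes did not overlap, 12 each way. They are given as values, since none passed the edgeR test over all genes.

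**Figure D1:**
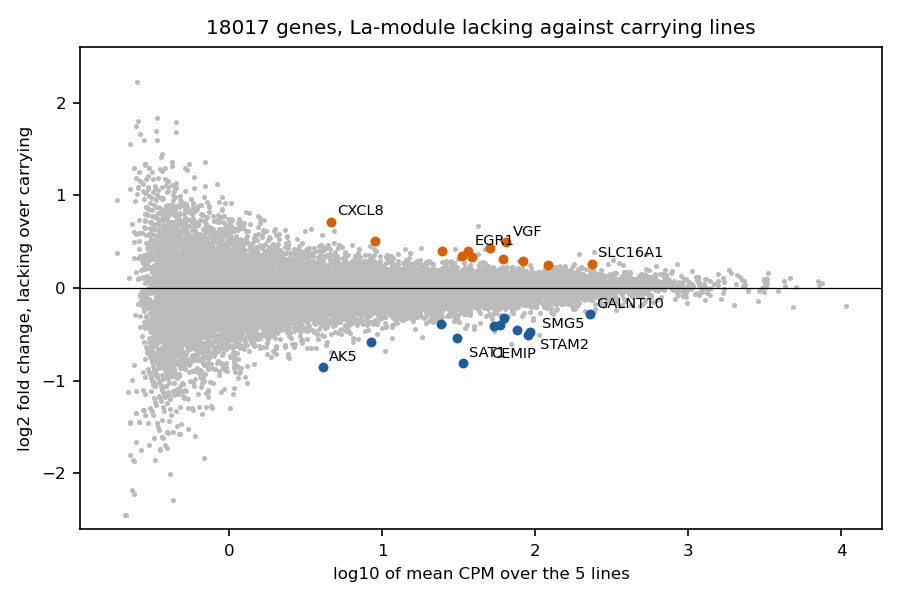
Log2 fold change of the La-module lacking over the carrying lines (vertical axis) against the log10 of the mean CPM over the 5 lines (horizontal axis) for 18017 genes, 1 point per gene. Orange and blue points are the 12 genes of smallest p in each direction whose classes did not overlap, of which VGF and CEMIP had the smallest adjusted p, 0.194.

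The 12 genes with higher values in the lacking lines included VGF, CXCL8, FGF5, TGFA and EGR1. VGF (chr7:101162509-101165569, minus strand), which encodes a secreted neuropeptide precursor, measured 52.0, 60.0 and 54.8 CPM in FL, ΔNTR and ΔCTR, against 79.9 and 77.0 in ΔLa-module and ΔNTD. Both lacking lines thus exceeded every carrying line and the parental value of 50.6 CPM, with a log2 fold change of 0.50 ± 0.08 SE (edgeR adjusted p = 0.194). CXCL8, the neutrophil chemoattractant interleukin-8, had 103, 88 and 103 counts in FL, ΔNTR and ΔCTR and 162 and 175 in ΔLa-module and ΔNTD, or 3.52 to 3.81 CPM against 5.66 and 6.38 (log2 fold change 0.72 ± 0.16 SE, edgeR adjusted p = 0.713). FGF5, a fibroblast growth factor, lay at 34.2 to 36.1 CPM in the carrying lines and at 42.3 and 45.9 CPM in the lacking lines. TGFA, a ligand of the epidermal growth factor receptor, lay at 53.8 to 59.7 CPM against 69.4 and 70.7 CPM. EGR1, an immediate-early transcription factor induced by growth factor signalling, measured 31.8 CPM in FL, 34.1 in ΔNTR and 31.6 in ΔCTR against 40.6 and 45.1 in ΔLa-module and ΔNTD (log2 fold change 0.40 ± 0.08 SE, edgeR adjusted p = 0.695). In all of these the parental library sat with or below the carrying lines.

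The same 12 genes included ASS1, PSAT1 and SLC16A1. ASS1, the argininosuccinate synthase of arginine synthesis, measured 39.6 to 50.1 CPM in the carrying lines and 59.4 and 61.7 in the lacking lines, with 51.7 in parental cells. PSAT1, an aminotransferase of serine synthesis, ran from 73.9 to 80.5 CPM against 91.2 and 94.7 CPM. SLC16A1, the lactate and pyruvate transporter MCT1, ran from 207.7 to 234.4 CPM against 251.3 and 268.3 CPM. The remaining genes of this direction were the ubiquitin ligase MARCHF4, the actin-bundling protein LCP1, the proliferation-linked transcription factor MYBL2 and the matrix protein TNXB, with log2 fold changes of 0.40, 0.34, 0.25 and 0.51. For TNXB the parental level, 9.90 CPM, lay nearer to the lacking lines (10.4 and 11.4) than to FL (6.69).

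Among the genes with lower values in the lacking lines, most were also below parental cells. CEMIP (chr15:80779343-80951776, plus strand), a protein of hyaluronan breakdown, measured 84.9, 88.1 and 81.5 CPM in FL, ΔNTR and ΔCTR against 59.9 and 63.6 in ΔLa-module and ΔNTD. Its parental level of 93.2 CPM lay above all 5 lines (log2 fold change −0.46 ± 0.07 SE, edgeR adjusted p = 0.194). The same order, parental above carrying above lacking, held for FBXO32, a muscle atrophy-linked subunit of a ubiquitin ligase (53.1 CPM in parental cells, 31.5 to 39.0 in carrying, 23.6 and 24.7 in lacking lines), and for the semaphorin co-receptor PLXNA4 (82.5, 62.8 to 69.4, 49.1 and 50.4 CPM). It also held for the neutral amino acid transporter SLC7A8 (86.98, 53.5 to 63.8, 43.7 and 46.6 CPM), for the adenylate kinase AK5 (7.13, 4.54 to 5.32, 2.66 and 2.87 CPM) and for the fat-cell transcription factor PPARG (10.6, 9.31 to 10.1, 6.202 and 6.82 CPM). F2RL1, a protease-activated receptor, and the O-glycosylation enzyme GALNT10 had parental levels above every line too, 32.2 and 263.8 CPM, with log2 fold changes of −0.39 and −0.28.

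SMG5, STAM2 and SAT1 had a different order. SMG5 (chr1:156249224-156282825, minus strand), a factor of nonsense-mediated mRNA decay, measured 93.6, 117.6 and 100.7 CPM in FL, ΔNTR and ΔCTR against 75.7 and 73.8 in ΔLa-module and ΔNTD, with 103.9 in parental cells. STAM2 (chr2:152116801-152175763, minus strand), an endosomal sorting adaptor, measured 97.3, 117.2 and 90.8 CPM against 69.0 and 74.4, with 66.7 in parental cells, so that the lacking lines were close to parental and the 3 carrying lines above (log2 fold change −0.51 ± 0.10 SE, edgeR adjusted p = 0.478). SAT1, the rate-limiting enzyme of polyamine breakdown, measured 35.7, 55.8 and 30.5 CPM against 23.5 and 22.9, with 25.9 in parental cells. NACC2, a transcriptional repressor, had a log2 fold change of −0.32. An exonic FL peak was held by 8 of the 12 genes of each direction, beside 23.5% of all genes tested. The summed FL scores were 3 to 101 among the lower and 3 to 24 among the higher ones. The 23.5% is no matched background, because the named genes had a mean of at least 1 CPM and peaks were commoner in abundant genes. At a mean of 22.8 to 66.3 CPM, 1203 genes held an exonic FL peak and 2253 held none in exon or intron. Among genes of higher mean these counts were 2606 and 899. Abundance was not matched for the named genes, so no enrichment of genes with peaks is read from the 8 of 12.

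**Figure D2:**
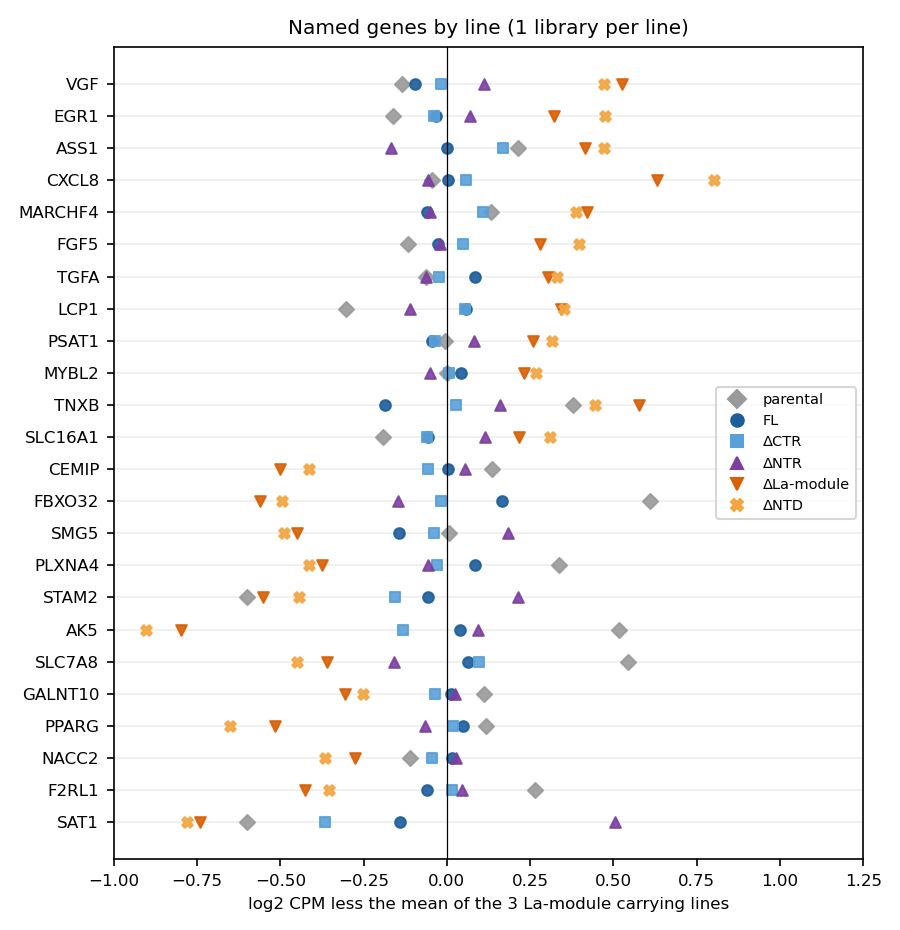
Level of each of the 24 named genes in each line, as log2 CPM less the mean of the 3 La-module carrying lines (horizontal axis); each symbol is 1 library. Both lacking lines (orange) lie outside the range of FL, ΔCTR and ΔNTR for every gene, as the choice of genes required, while the parental symbol (grey) lies above all 5 lines for FBXO32, AK5, SLC7A8 and PLXNA4 and next to the lacking lines for STAM2.

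The ΔNTR library stood apart and set how many genes were called. Over genes with a mean of at least 1 CPM, the SD of log2 CPM about the mean of the 5 lines was 0.169 in ΔNTR, against 0.117 in ΔLa-module, 0.126 in ΔCTR, 0.133 in FL and 0.137 in ΔNTD. Without ΔNTR, 196 of 17698 genes were higher (1.11%) and 87 lower (0.492%) in the lacking lines at an edgeR adjusted p below 0.05, against 0 and 0 with it. Without any other line the counts stayed at 0 in both directions. All 6 genes called by DESeq2 were among those called without ΔNTR. Of the 196 genes called higher, 123 had a level in ΔNTR above both lacking lines, so that ΔNTR differed from FL and ΔCTR in the direction of the lacking lines and beyond them. Of the 87 called lower, 17 had a level in ΔNTR below both lacking lines. Across all 5 lines 52 of the 196 and 60 of the 87 did not overlap between classes, beside 9.99% upwards and 10.8% downwards of all genes. Compared with the parental library, 192 of the 196 were higher and 81 of the 87 lower in both lacking lines. The share of all genes in that order was not counted. These genes were picked by a difference of the lacking lines from FL and ΔCTR, so these counts are no separate support.

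Genes of the hypoxia response and of glycolysis were among those with this pattern, making up 24 of the 196 called higher without ΔNTR. These genes are switched on by hypoxia-inducible factors when oxygen is low, and serve glucose uptake, glycolysis, acid balance and blood vessel growth. Of the 29 listed genes all were tested, 0 passed between the classes and 1, the oxygen-sensing hydroxylase EGLN3, did not overlap between them, with a median log2 fold change of 0.11 beside 0.00078 over all genes. Without ΔNTR, 24 of the 29 were higher in the lacking lines and 0 lower, with a median of 0.28, against 1.11% of all genes called higher. ΔNTR was the highest of the 6 libraries for 28 of the 29 genes and parental the lowest for 28. How often each was the extreme library over all genes tested was not counted. The ΔNTR library also had the largest SD over genes, as given above, so these counts have no background to be read against.

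Carbonic anhydrase CA9, a cell-surface enzyme of acid balance, measured 56.2 CPM in parental cells, 113.6 in FL, 128.7 in ΔCTR, 170.6 in ΔNTD, 201.5 in ΔLa-module and 240.4 in ΔNTR. The glucose transporter SLC2A1 measured 77.1, 128.9, 132.7, 203.5, 243.3 and 259.4 CPM in the same order of lines, and the stress-response gene NDRG1 152.5, 234.3, 254.3, 365.4, 426.0 and 495.6 CPM. The libraries therefore ranked alike for these 3 genes, with FL and ΔCTR together, the lacking lines above them and ΔNTR highest. The mitophagy receptor BNIP3 ran from 157.3 CPM in parental cells to 498.1 in ΔNTR, and the angiogenic factor VEGFA from 473.3 to 831.5 CPM. PGK1 (chrX:77910739-78129295, plus strand), phosphoglycerate kinase, measured 682.5 CPM in parental cells, 893.0 in FL, 912.5 in ΔCTR, 1132 in ΔNTD, 1159 in ΔLa-module and 1217 in ΔNTR. LDHA, lactate dehydrogenase, ran from 2409 CPM in parental cells to 3631 in ΔNTR, and ENO1, an enolase, from 3013 to 3553 CPM.

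**Figure D3:**
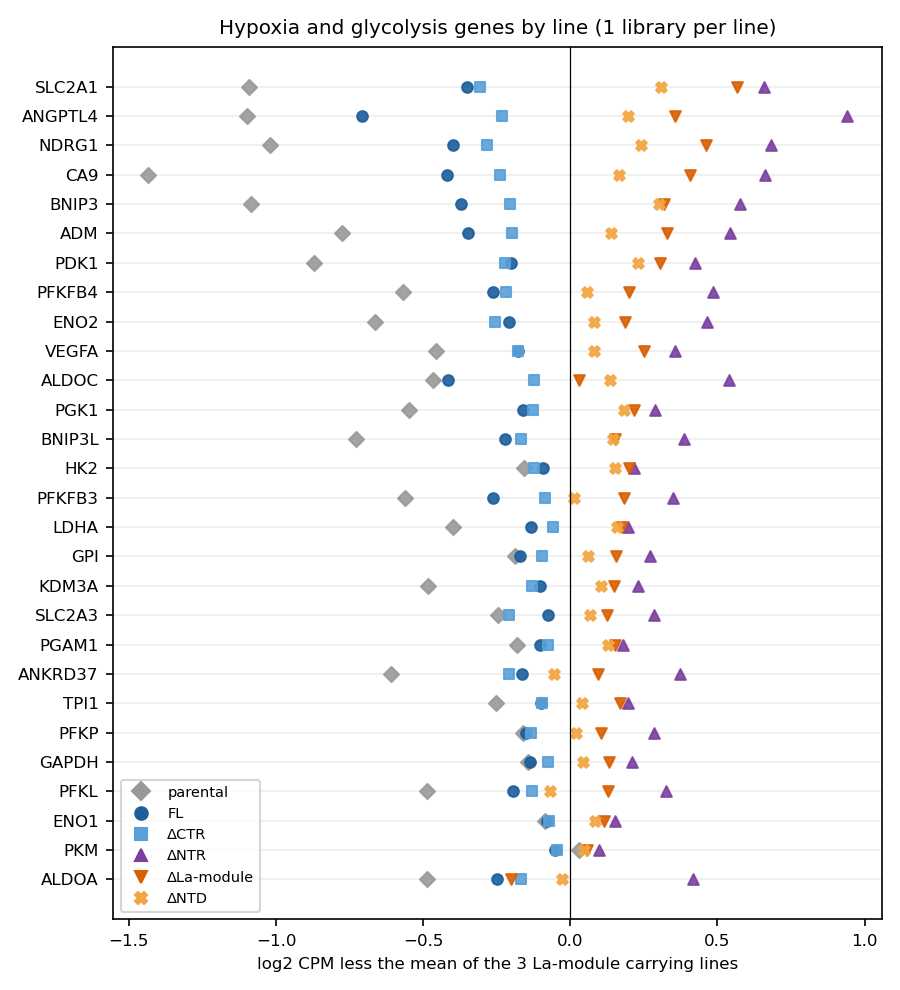
Level of 28 hypoxia and glycolysis genes in each library, as log2 CPM less the mean of the 3 La-module carrying lines (horizontal axis), ordered by their log2 fold change without ΔNTR; EGLN3, at 0.0747 CPM in parental cells, is left out. ΔNTR (purple) lies to the right of the lacking lines (orange) and FL and ΔCTR (blue) to their left for most genes, so that the carrying class spans the lacking class.

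The lines form 2 contrasts of the La-module that share no library, ΔLa-module against FL and ΔCTR with the N-terminal region present and ΔNTD against ΔNTR with it absent. The hypoxia and glycolysis list had a median log2 difference of 0.31 in the first and −0.27 in the second, and 28 of its 29 genes, all but EGLN3, had opposite signs, positive with the region. An edgeR fit with an interaction of class and N-terminal region took its spread from FL against ΔCTR alone, so its calls compare single libraries and are not given as a test of this difference. Since ΔNTR and ΔNTD are 1 library each, the effect of the N-terminal region and a difference of the ΔNTR library cannot be told apart. Over 9390 genes with a mean of at least 10 CPM the 2 contrasts had a Pearson r of −0.18 across genes, which are not independent replicates, and 42% of the genes had the same sign in both.

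**Figure D4:**
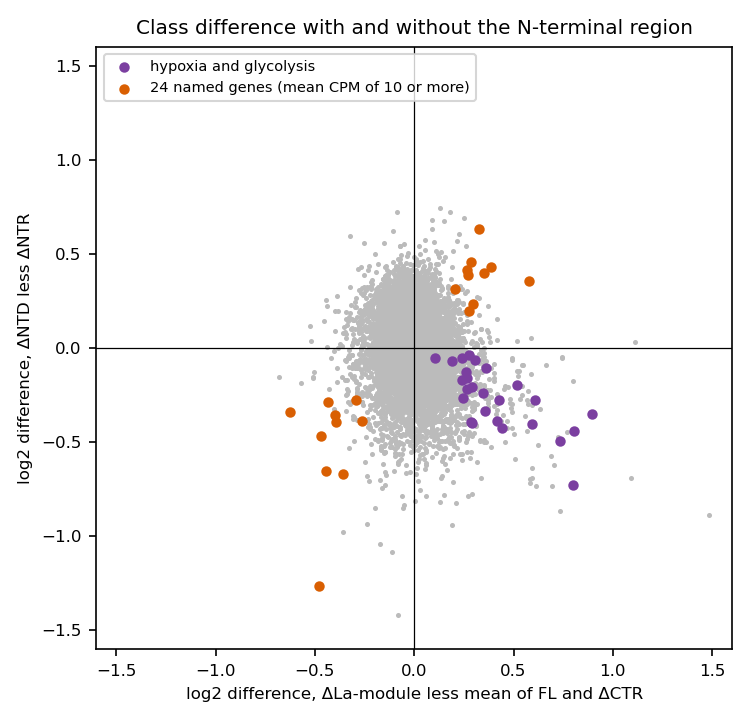
Log2 difference of ΔLa-module less the mean of FL and ΔCTR (horizontal axis) against that of ΔNTD less ΔNTR (vertical axis), 1 grey point per gene with a mean of at least 10 CPM. Purple points, the hypoxia and glycolysis genes, lie at positive values on the horizontal and negative values on the vertical axis, and orange points, the named genes, lie in the 2 quadrants of equal sign that their choice required.

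Genes outside this list were also called without ΔNTR. The largest rise was in DEPP1, a regulator of autophagy, at 7.01 CPM in FL and 7.57 in ΔCTR against 21.3 in ΔLa-module and 14.2 in ΔNTD, with 26.6 in ΔNTR (log2 fold change 1.28 without ΔNTR, edgeR adjusted p = 7.87e-11). F3, tissue factor, which starts blood clotting, measured 26.3 and 25.8 CPM in FL and ΔCTR against 56.9 and 51.6, with 50.4 in ΔNTR and 11.8 in parental cells. It was below both lacking lines in ΔNTR, so the classes did not overlap. IL6, an inflammatory cytokine, measured 2.99 CPM in FL, 4.21 in ΔCTR and 4.795 in ΔNTR against 6.01 and 6.24 CPM. Of 24 tested genes of the amino acid and integrated stress response, 6 were higher and 1 lower without ΔNTR, beside 1.11% and 0.492% of all genes. DDIT4, an inhibitor of mTORC1 signalling, measured 46.8 and 45.8 CPM in FL and ΔCTR, 99.1 and 75.5 in the lacking lines and 122.3 in ΔNTR. The gene of this list that was lower was SLC7A11, the cystine transporter, at 48.4 and 44.4 CPM in FL and ΔCTR, 28.7 and 36.9 in ΔLa-module and ΔNTD and 41.1 in ΔNTR, with 80.0 in parental cells. NQO1 and TXNRD1, antioxidant enzymes under NRF2, were likewise lower. With SLC7A11, which is in both lists, 3 of 11 tested NRF2 target genes were lower and 1 higher, beside 0.492% and 1.11% of all genes.

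The mRNAs of the collagen pathway, for which LARP6 is best known, included type I collagen, whose mRNAs overlapped between the classes. COL1A1 (chr17:50184101-50201632, minus strand), a chain of type I collagen with a summed FL score of 452, measured 729.1, 628.2 and 995.4 CPM in FL, ΔNTR and ΔCTR against 974.0 and 897.1 in ΔLa-module and ΔNTD. The ΔCTR level lay above both lacking lines, and the difference did not pass (log2 fold change 0.25 ± 0.13 SE, edgeR adjusted p = 0.971). It ran from 0.115 without ΔNTR to 0.463 without ΔCTR. It passed with no filter on low counts (0.25, edgeR adjusted p = 0.039). With only the lines that carry the N-terminal region, where ΔLa-module is the lone lacking library, it was 0.18. COL1A2 (chr7:94394895-94431227, plus strand), its partner chain with a score of 280, measured 679.8, 584.4 and 716.7 CPM against 690.3 and 633.8 CPM (log2 fold change 0.0037 ± 0.081 SE). Of 13 tested genes of type I collagen and its LARP6-related partners, 0 passed over the 5 lines and 3 were higher without ΔNTR, beside 1.11% of all genes. These 3 were the collagen-modifying enzymes P4HA1, P4HA2 and PLOD2, with PLOD2 at 511.2 and 519.1 CPM in FL and ΔCTR, 656.5 and 702.4 in the lacking lines and 703.0 in ΔNTR. For PLOD2, FL and ΔCTR thus lay lowest of the 5 lines and ΔNTR highest, as for most hypoxia and glycolysis genes above. Of 14 other collagen genes 0 were called with or without ΔNTR. Their median log2 fold change was −0.081. COL5A2, COL8A1 and COL16A1 were below all carrying lines in both lacking lines, by 0.09 to 0.16 on the log2 scale. These were 3 of the 14, and 0 lay above, beside 10.8% below and 9.99% above over all genes. FN1, fibronectin, measured 5025, 5668 and 4567 CPM in FL, ΔNTR and ΔCTR against 4455 and 4388 CPM.

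The other La-related proteins showed small differences. LARP1, which binds mRNAs of the translation machinery, measured 576.0 to 604.6 CPM in the carrying lines and 602.7 and 606.5 CPM in the lacking lines. SSB, the La protein itself, measured 92.0 CPM in FL, 89.5 in ΔNTR and 97.2 in ΔCTR against 99.8 and 105.0 CPM (log2 fold change 0.14 ± 0.07 SE). LARP1B and LARP4B did not overlap either, so that 3 of 7 family members lay above the carrying lines, by at most 0.14 on the log2 scale, beside 9.99% of all genes, and 0 passed. The median log2 fold change was 0.016 over 83 cytosolic and 0.017 over 77 mitochondrial ribosomal protein genes, 0 of either were called with or without ΔNTR, and 8 and 8 lay above and 4 and 5 below the carrying lines in both lacking lines, beside 9.99% above and 10.8% below over all genes.

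Cell cycle, heat shock and interferon genes gave 0 calls over the 5 lines. For 24 genes of the G2 and M phases the median log2 difference was −0.059 with the N-terminal region present and 0.29 with it absent, where ΔNTR was low. MKI67, a proliferation marker, measured 1188 CPM in FL, 1191 in ΔCTR and 969.8 in ΔNTR, against 1187 and 1246 in ΔLa-module and ΔNTD. For 13 heat shock genes the same medians were −0.0098 and 0.24, with HSP90AA1 at 2687 CPM in ΔNTR and 3143 to 3413 CPM in the other 4 lines. Of 35 tested interferon-stimulated genes 2 lay above and 5 below the carrying lines in both lacking lines, beside 9.99% and 10.8% of all genes, with a median of −0.091. Of 20 tested NF-kB cytokine and pathway genes 4 lay above, namely IL6, CXCL8, BIRC3 and SOD2, and 0 below, beside the same shares of all genes, and 2 were called higher without ΔNTR, beside 1.11%. In fatty acid synthesis SCD, the stearoyl-CoA desaturase, measured 289.7, 313.8 and 285.4 CPM in FL, ΔNTR and ΔCTR against 411.2 in ΔLa-module and 321.8 in ΔNTD. It was among the genes called without ΔNTR.

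Genes with FL peaks were then compared with genes without. Of the 18017 genes, 4242 held an FL iCLIP peak in an exon and 13355 held none in exon or intron. For each library a score was taken as the median of log2 CPM less its 5-line mean over the genes with peaks, minus the same over genes without, within 5 strata of abundance. The score was 0.026 in ΔNTR, −0.0072 in FL and −0.0087 in ΔCTR, against −0.0019 and −0.013 in ΔLa-module and ΔNTD, with −0.014 in parental cells. ΔLa-module lay inside the range of the carrying lines and ΔNTD just below it, next to parental, and the class difference of −0.011, a change of −0.74%, was smaller than the SD within classes of 0.017 (exact two-sided permutation test over 10 splits of the lines, p = 0.8, the smallest p possible being 0.2). A shift of genes with FL peaks between the classes was not detectable by this test, which cannot reach a p below 0.05 with 3 lines against 2. All 5 lines also kept the cells' own LARP6, so the classes differed in the introduced protein and not in all LARP6 binding. Without ΔNTR the difference was 0.0023, of opposite sign.

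Within the strata of abundance, the score grew with the peak score in ΔNTR. Among genes with a summed FL score of at least 50 (424 genes) it reached 0.050 in ΔNTR, against −0.019 in both FL and ΔCTR, and it was 0.0092 and −0.018 in ΔLa-module and ΔNTD. Without strata the ΔNTR score over all genes with FL peaks was −0.027, the lowest of the 5 lines, so its sign depended on the strata. The highest stratum spanned a mean of 66.3 to 10640 CPM, so abundance was matched only loosely within it. The median class log2 fold change of genes with a mean of at least 10 CPM was 0.0075 in 4978 genes without a peak, 0.012 in 2395 genes with a score of 3 to 9, 0.014 in 1276 with 10 to 49, 0.027 in 245 with 50 to 99 and 0.022 in 177 with 100 or more. In the highest of the 5 strata of abundance, 91 of 2607 genes with an FL peak (3.49%) and 16 of 898 without (1.78%) were called higher without ΔNTR, while 0.959% and 0.891% were called lower; the genes with peaks were also more abundant, with a median of 146 CPM beside 94.9 CPM.

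**Figure D5:**
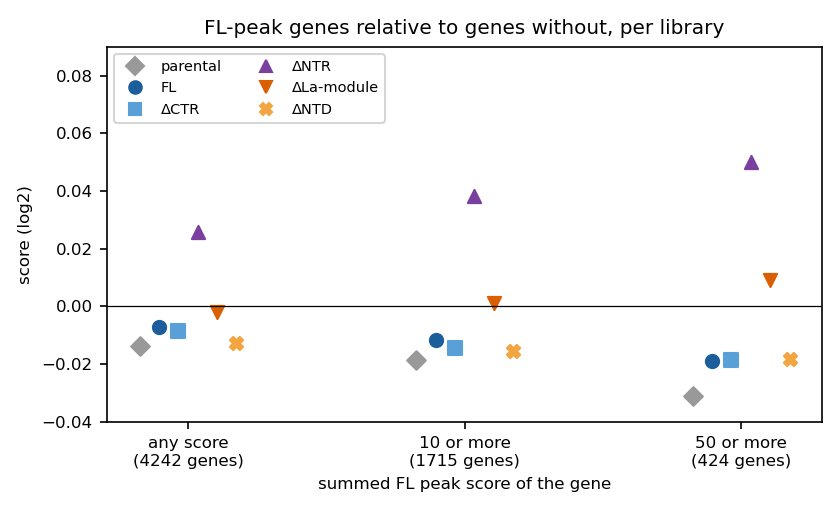
Score of each library, the median relative level of genes with an FL peak less that of genes without within strata of abundance (vertical axis, log2), for genes of any summed FL score, of 10 or more and of 50 or more (horizontal axis); each symbol is 1 library. ΔNTR rises from 0.026 to 0.050, ΔLa-module lies inside the range of the carrying lines at each threshold, and ΔNTD lies close to FL and ΔCTR.

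Of the genes with the highest FL peaks, YWHAE did not overlap between the classes and ACTB, HNRNPH1, PGK1 and RN7SL1 did. ACTB (chr7:5526409-5563902, minus strand), beta-actin, with a score of 2098 at its highest FL peak, measured 6565, 7159 and 6900 CPM in FL, ΔNTR and ΔCTR against 7432 and 7070 in ΔLa-module and ΔNTD (log2 fold change 0.077 ± 0.056 SE). With only the lines that carry the N-terminal region, where ΔLa-module is the lone lacking library, the log2 fold change of ACTB was 0.15. Summed over its peaks, the ACTB score was 8 in ΔLa-module and 0 in ΔNTD. HNRNPH1 (chr5:179614178-179634784, minus strand), a splicing regulator with a score of 720 at its highest peak, measured 382.8, 333.4 and 384.4 CPM against 383.8 and 377.2 CPM. PGK1, with a score of 676 at its highest peak and the levels given above, passed without ΔNTR (log2 fold change 0.34, edgeR adjusted p = 1.16e-06). With only the lines that carry the N-terminal region, its log2 fold change was 0.36. YWHAE, a 14-3-3 adaptor with a score of 615, measured 802.4 to 813.1 CPM against 827.2 and 829.2 CPM, which did not overlap but differed by 0.036 ± 0.056 SE on the log2 scale. CTNNA1, alpha-catenin, with a score of 327, measured 412.6 to 425.8 CPM against 418.1 and 447.1 CPM. RN7SL1, the RNA of the signal recognition particle, measured 9971, 13020 and 10890 CPM against 10500 and 9179 CPM, and is uncertain since near-identical copies share its reads.

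Among the 424 genes with a summed FL score of at least 50, 67 lay above and 42 below the carrying lines in both lacking lines, 15.8% and 9.91%, beside 9.99% and 10.8% of all genes. An unadjusted p below 0.05 was found for 35 of them, 23 with higher and 12 with lower values, and 0 passed after adjustment. The 8 of smallest p, whose FL positions are printed above, were picked after their values were seen. Of these STAM2 had a summed FL score of 101, 45 in ΔNTR and 56 in ΔCTR, and 0 in both lacking lines. PPP1R12C (chr19:55090914-55117637, minus strand), a subunit of myosin phosphatase, had a score of 76 and measured 76.2 CPM in FL, 103.7 in ΔNTR and 63.2 in ΔCTR against 54.0 and 52.5 CPM, with 56.1 in parental cells. CAMK2N1 (chr1:20482391-20486210, minus strand), an inhibitor of the kinase CaMKII, had a score of 305 and measured 100.2, 120.9 and 95.3 CPM against 84.0 and 84.6 CPM, with 82.1 in parental cells. In these 3 genes the lacking lines resembled parental cells and the carrying lines were above them.

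LIMK1 (chr7:74082933-74122525, plus strand), a kinase of actin turnover, measured 359.5, 388.8 and 338.9 CPM in FL, ΔNTR and ΔCTR against 307.6 and 305.9 CPM, and parental cells at 345.5 CPM lay with the carrying lines. MYLK, the myosin light chain kinase, measured 510.4 to 517.6 CPM against 440.5 and 458.6 CPM, with parental cells at 551.4 CPM above all 5 lines. Higher values in the lacking lines were found for TFPI, the tissue factor pathway inhibitor (182.7 to 195.0 CPM against 211.8 and 227.0 CPM), for the adaptor CRKL (214.9 to 218.4 against 245.1 and 245.7 CPM) and for P4HA1, a collagen prolyl hydroxylase (155.0 to 190.0 against 201.5 and 198.3 CPM). The order seen in STAM2, with all 3 carrying lines above parental and both lacking lines, was found in 12 of the 424 genes (2.83%) and in 738 of all 18017 genes (4.1%), so its share was no higher among genes of high FL score. Besides STAM2, PPP1R12C and CAMK2N1 the 12 included ZBTB21, a zinc finger repressor, at 94.9 CPM in FL, 167.6 in ΔNTR and 100.0 in ΔCTR against 82.6 and 87.3 CPM, and the scaffold AKAP12 and spectrin SPTBN1, with log2 fold changes of −0.13 and −0.16.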

How the data were processed

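The authors trimmed reads with Trim Galore 0.6.10, aligned them with STAR 2.7.10b to GRCh38 and deposited raw gene counts, 1 table per library; the reverse-strand counts were used, which exceeded the forward counts 8.76 to 9.71 times. The peak score deposited per pooled iCLIP list, after the authors removed parental peaks, counts crosslinks. Peaks were joined by their centre base to exons of GENCODE genes on GRCh38. Rows without a gene took 34.4% to 37.8% of reads and were left out. Counts were tested with edgeR 4.0.16 (R 4.3.3; TMM scaling, filterByExpr, class as the only term, Benjamini-Hochberg adjustment); CPM are TMM-scaled. DESeq2 1.42.0, other scaling, no filter, the unstranded counts, an N-terminal region term, parental in the fit and each line left out were alternatives. Classes came from the labels. Members, lists and tests were chosen with earlier results of these data known. Named genes were the 12 of smallest p in each direction among genes with a mean of at least 1 CPM whose classes did not overlap, LARP6, COL1A1, COL1A2, CTNNA1, the genes of the 5 highest FL peaks, and the most abundant members of each list. Contrasts of 2 lines used log2(CPM + 0.5). No sample gives repeat libraries, so p-values measure the spread between lines. Scripts were tested on simulated data. The small RNA libraries were not used here.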

Additional observations from a re-analysis of the deposited data

Results flagged for a closer look

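The class difference changed sign with the N-terminal region for 2 gene lists. For hypoxia and glycolysis the median log2 difference was 0.31 between ΔLa-module and the mean of FL and ΔCTR, and −0.27 between ΔNTD and ΔNTR. For metallothioneins, small metal-binding proteins, the medians were 0.19 and −0.40. MT2A measured 516.1 CPM in FL, 642.9 in ΔCTR and 732.8 in ΔNTR against 714.9 in ΔLa-module and 548.8 in ΔNTD. No test of the difference between the contrasts is given, because each rests on 1 library of the lacking line and an interaction fit takes its spread from FL against ΔCTR alone, and a difference of the ΔNTR library and the effect of its construct cannot be told apart.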

How the results depend on the processing

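Over 40 genes and 12 alternatives, 395 of 480 values kept their direction and their side of the threshold, 76 kept their direction and passed it (31 of these without ΔNTR) and 9 changed sign. The count of higher genes was 1 with DESeq2, 11 with no filter on low counts, 0 to 196 with 1 line left out and 219 with only the lines that carry the N-terminal region, an alternative chosen after seeing the data in which the lone lacking library is assumed to vary like the others; that of lower genes was 5, 25, 0 to 87 and 77. The high ends are without ΔNTR. RLE scaling, unstranded counts, the N-terminal region term and parental in the fit gave 0 and 0. Sign changes among genes were LARP6 (−0.26 to 0.0087 with 1 line left out, positive without ΔNTR, and 0.011 with only the lines that carry the region), COL1A2 (−0.00098 with no filter, −0.080 to 0.066 with 1 line left out, with −0.080 without ΔNTR and −0.054 without ΔLa-module, and −0.013 with only those lines), CTNNA1 (−0.0012) and RN7SL1 (0.013) with only those lines, and HNRNPH1 (−0.015 to 0.087 with 1 line left out, the former without ΔNTR). The shift of genes with FL peaks was −0.015 to 0.0023 with 1 line left out and 0.016 without strata of abundance, of opposite sign; no setting could pass the exact test. The median log2 fold change of all genes lay between −0.015 and 0.0021 over all settings. Of 252 list medians, 28 changed sign, 4 of them without ΔNTR. No paired analysis was possible because each line gave 1 long RNA library and the groups compared share only the number 1. Counts of about 100, as for CXCL8, limit the precision of low genes.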
